A study of Mus musculus with 2 samples.

Results

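Tubulin isotypes are the gene-encoded variants of the protein that builds microtubules. The 10 genes described here were taken by symbol: the alpha tubulin genes Tuba1a, Tuba1b and Tuba1c, the beta tubulin genes Tubb2a, Tubb2b, Tubb3, Tubb4b, Tubb5 and Tubb6, and the gamma tubulin gene Tubg1. All 10 were found among the 43346 Ensembl genes of the deposited tables. They were measured by total RNA sequencing in limb tissue of B6NCrl mouse embryos at embryonic day 12.5, with no transgene, mutation or treatment named in the labels. The study holds 1 group of 2 biological replicates, as the labels number them: replicate 1 pooled the limbs of 88 embryos and replicate 2 those of 68, both of mixed sex and both from 10 ng of RNA. Fore- and hindlimbs are not told apart in the labels, so the comparisons are between genes and between the replicate libraries.

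Microtubules grow from heterodimers of alpha and beta tubulin, and gamma tubulin forms the ring-shaped complex from which new microtubules start at centrosomes. The isotypes differ most at their acidic C-terminal tails, which project from the microtubule and carry many of its modifications, and some isotypes are known as markers of cell types, such as Tubb3 for neurons. In the limb bud, microtubules form the mitotic spindles of dividing mesenchyme, the primary cilia through which Hedgehog signals pass, and the axons of ingrowing nerves.

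The coding ends of Tuba1c, 5 beta genes and Tubg1 are shown because this is where many isotypes differ in the part of the protein that is modified. Each sequence is the last 60 bases of the coding sequence with its stop codon, 5′ to 3′ on the gene's strand, read from GENCODE M21 transcripts on mm10, and capitals mark the glutamate codons GAA and GAG.
Tuba1c: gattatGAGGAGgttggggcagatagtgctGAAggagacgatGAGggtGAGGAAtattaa
Tubb5: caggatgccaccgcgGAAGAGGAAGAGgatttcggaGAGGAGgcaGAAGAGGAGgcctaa
Tubb4b: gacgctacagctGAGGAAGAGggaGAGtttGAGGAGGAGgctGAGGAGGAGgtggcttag
Tubb2a: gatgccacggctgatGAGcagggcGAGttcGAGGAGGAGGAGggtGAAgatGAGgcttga
Tubb2b: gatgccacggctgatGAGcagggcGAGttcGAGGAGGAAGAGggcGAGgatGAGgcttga
Tubb3: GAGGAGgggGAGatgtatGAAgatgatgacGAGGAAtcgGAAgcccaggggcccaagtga
Tubg1: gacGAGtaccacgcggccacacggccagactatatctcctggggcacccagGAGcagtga

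Among the 19 sense codons of these ends, the genes shown other than Tubg1 held between 6 (Tuba1c) and 10 (Tubb4b) glutamate codons, whereas Tubg1 held 2. The ends of Tubb2a and Tubb2b differed only at synonymous bases, so both encode the same residues. Tuba1c ended in a tyrosine codon before the stop, the residue that tubulin tyrosine ligase adds and vasohibins remove, and none of the beta genes or Tubg1 did. The mm10 positions of these ends, all within the last exon, were chr13:34074468-34074527 for Tubb2a and chr13:34127471-34127530 for Tubb2b on the minus strand. They were chr2:25222308-25222367 for Tubb4b and chr17:35834982-35835041 for Tubb5 on the same strand. Tuba1c (chr15:99037950-99038009), Tubb3 (chr8:123421623-123421682) and Tubg1 (chr11:101126170-101126229) lie on the plus strand.

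The starts of the coding sequences are shown for 5 beta genes because the first 4 residues of nascent tubulin are what the factor Ttc5 reads when free tubulin triggers decay of tubulin mRNA on the ribosome. In the first 60 coding bases, 5′ to 3′, capitals mark bases that differ from Tubb5.
Tubb5: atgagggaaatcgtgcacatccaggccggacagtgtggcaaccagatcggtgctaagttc
Tubb4b: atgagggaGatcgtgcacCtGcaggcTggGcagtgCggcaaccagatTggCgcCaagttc
Tubb2a: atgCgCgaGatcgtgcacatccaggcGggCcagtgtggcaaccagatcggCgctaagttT
Tubb2b: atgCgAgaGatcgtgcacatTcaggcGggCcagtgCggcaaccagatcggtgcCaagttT
Tubb3: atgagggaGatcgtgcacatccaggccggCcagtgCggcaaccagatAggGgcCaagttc
Over these 60 bases the beta genes shown differed from Tubb5 at 6 to 9 bases. The first 4 codons read methionine, arginine, glutamate and isoleucine in all 6 beta genes. Those of Tubg1 read methionine, proline, arginine and glutamate.

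The limb held 3 abundant tubulin mRNAs, Tuba1b, Tuba1a and Tubb5, and Tubb3 had the lowest level of the members. Levels are given as TPM, which scales reads by transcript length and library total. They are the deposited TPM of replicates 1 and 2, followed by mean ± SD (n = 2). In bulk tissue, fewer cells of a type and less RNA per cell cannot be told apart.

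Among the alpha genes, Tuba1b, a broadly expressed isotype (ENSMUSG00000023004.8), was measured at 1371 and 1407 TPM (1389 ± 25.5) and had rank 47 among protein-coding genes by mean TPM. Tuba1a, the isotype best known from migrating and differentiating neurons and from human brain malformations (ENSMUSG00000072235.5), was at 1231 and 1248 TPM (1239.7 ± 11.8), rank 58. Tuba1c (ENSMUSG00000043091.8) was far lower, at 104 and 100.02 TPM (102 ± 2.77), rank 1612. Tuba1b lay above Tuba1a in both libraries, by 1.11-fold and 1.13-fold, a difference larger than the spread of either gene. Tuba1a was 11.8-fold and 12.5-fold above Tuba1c. The 3 genes lie together on chromosome 15, with 15.3 kb between Tuba1b and Tuba1a on the minus strand and 76.2 kb from Tuba1a to Tuba1c on the plus strand.

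Among the beta genes, Tubb5, the main beta tubulin of dividing cells (ENSMUSG00000001525.10), was highest at 973 and 1024 TPM (998.7 ± 35.9), rank 80. Tubb4b, a widespread isotype that also serves the axonemes of cilia (ENSMUSG00000036752.4), was at 396 and 412 TPM (403.9 ± 11.7), rank 326. Tubb5 exceeded Tubb4b by 2.46-fold and 2.48-fold. The other genes listed as markers of multiciliated cells were at or near 0, with Foxj1 at 0.15 TPM in both libraries, Ccno at 0.30 and 0.18, and Mcidas at 0 in both.

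The remaining beta genes were each below 100 TPM. Tubb2a (ENSMUSG00000058672.6) was at 65.6 and 66.7 TPM (66.1 ± 0.799) and Tubb6 (ENSMUSG00000001473.6) at 68.4 and 62.9 TPM (65.6 ± 3.83). Replicate 1 was the lower library for Tubb2a and the higher for Tubb6, so the genes overlapped and their order was not resolved. Tubb2b, which is required for neuronal migration in the cortex (ENSMUSG00000045136.5), was at 24.4 and 26.8 TPM (25.6 ± 1.64). Tubb2a exceeded this neighbour on chromosome 13, 48.7 kb away on the same strand, by 2.68-fold and 2.49-fold. Tubb3, the neuronal beta tubulin (ENSMUSG00000062380.3), was the lowest member at 7.51 and 12.2 TPM (9.84 ± 3.30), rank 8862, and Tubb5 was 130-fold and 84.1-fold above it.

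Tubg1, the main gamma tubulin gene (ENSMUSG00000035198.9), was at 72.1 and 76.6 TPM (74.3 ± 3.18), rank 2308. It was 13.7-fold and 14.5-fold above its paralog Tubg2, which lies 29.5 kb away on chromosome 11 and was at 5.25 and 5.29 TPM. Summed alpha and beta tubulin mRNA was 58.8 times Tubg1 in replicate 1 and 56.9 times in replicate 2.

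In the order Tuba1b, Tuba1a, Tubb5, Tubb4b, Tuba1c, Tubg1, Tubb2a, Tubb6, Tubb2b, Tubb3, 8 of 9 neighbouring pairs did not overlap between the libraries, and Tubb2a with Tubb6 did. With 2 libraries no exact test over samples can pass 0.05, so this describes the spread only. The order depends on length: by CPM (expected counts scaled to the library total, without length scaling), Tubb5, whose transcript is the longest of the 10, came first at 1542 and 1627, ahead of Tuba1b at 1412 and 1450.4. Tubb6 then stood above Tubb2a in both libraries.

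**Figure D1:**
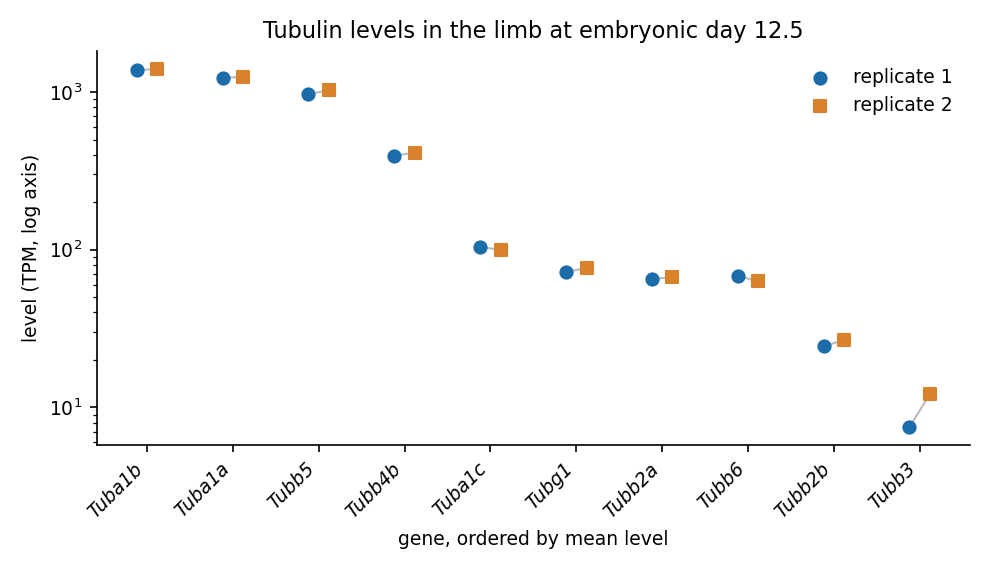
Level of each tubulin gene in TPM (log axis), ordered by mean, with a circle for replicate 1 and a square for replicate 2 joined by a line. The libraries lie close together for 9 genes, and Tubb3 is the gene whose points are farthest apart, at 7.51 and 12.2 TPM.

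The alpha pool consisted almost entirely of a pair of genes. Tuba1b made up 50.7% and 51.1% of the summed TPM of the 3 alpha members in replicates 1 and 2, Tuba1a 45.5% and 45.3%, and Tuba1c 3.84% and 3.63%. In the beta pool, Tubb5 held 63.4% and 63.8% and Tubb4b 25.8% and 25.7%. The minor beta isotypes were Tubb2a with 4.27% and 4.16%, Tubb6 with 4.45% and 3.92%, Tubb2b with 1.59% and 1.67%, and Tubb3 with 0.489% and 0.758%. Tubb3 was the isotype whose share moved most in proportion.

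**Figure D2:**
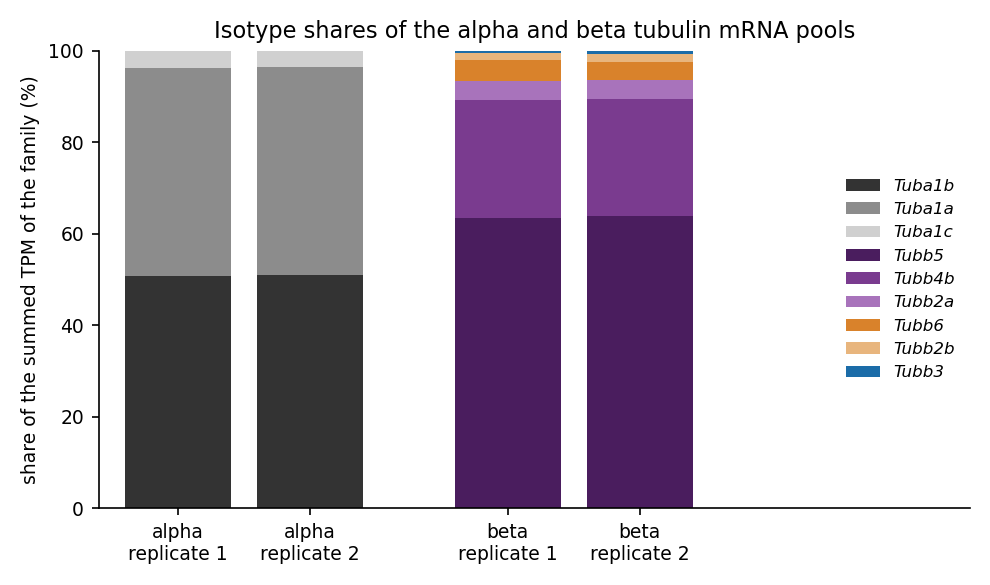
Stacked bars of the share (%) of each isotype in the summed TPM of the alpha members and of the beta members, for each library. Tuba1b and Tuba1a fill nearly all of the alpha bars, and Tubb5 and Tubb4b most of the beta bars, with little change between libraries.

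The summed alpha level was 2707 and 2755 TPM and the summed beta level 1535 and 1605 TPM. Alpha over beta was therefore 1.76 and 1.72 (1.74 ± 0.0329). Without length scaling the ratio was 1.29, since the Tubb5 transcript is longer than those of the alpha genes. Alpha and beta proteins form heterodimers in equal number, but these are mRNA levels and give no measure of protein. The members held 99.5% of the TPM of all named alpha genes in both libraries and 98.9% and 99.1% of that of the beta genes.

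The 10 other tubulin genes had low levels. Tuba4a, an alpha gene whose coding sequence lacks the terminal tyrosine codon in mammals, was at 12.8 and 12.2 TPM. Tubb4a, a beta gene of brain and oligodendrocytes, was at 12.1 and 10.7 TPM. Tube1 (11.9 and 11.4 TPM) and Tubd1 (9.51 and 8.27 TPM) encode the epsilon and delta tubulins of centrioles. Tubb1, the beta tubulin of platelets, was at 4.29 and 3.61 TPM, beside a summed level of the 5 listed platelet and megakaryocyte markers, Tubb1 included, of 59.5 and 58.0 TPM. Most of that sum was Pf4, at 43.0 and 42.0 TPM. Tuba3a (0.49 and 0.48 TPM), Tuba8 (0.18 and 0.25), Tuba3b (0 and 0.07) and Tubal3 (0.02 in both) stayed below 1 TPM. None of the 8 of these genes with enough counts to test was called between the libraries by the binomial test described below, against 16.4% of all genes tested. Tuba8, with 7 and 10 counts, and Tuba3a, with 13 and 12.8, had few counts, where small differences cannot pass. Tubb3 was 0.623 times Tubb4a in replicate 1 and 1.14 times in replicate 2, so their order turned between the libraries.

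The precision of these estimates rests on depth and on how reads shared by near-identical genes were split. The members took 0.489% and 0.505% of 29810026 and 29938721 expected counts, which are estimated read numbers that need not be whole. Tubb5 had 45964 and 48717 counts, Tuba1b 42089 and 43423, Tuba1a 35591 and 36331, and Tubb4b 11061 and 11605. Tuba1c had 3657 and 3543 counts, Tubg1 2297 and 2455, Tubb6 2123 and 1968, and Tubb2a 1824 and 1868. The lowest were Tubb2b, with 834 and 919.9 counts, and Tubb3, with 249 and 406. Tubb3 is thus the member that rests on the fewest reads.

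The alpha genes are nearly identical in coding sequence, with identities of 98.3% for Tuba1a and Tuba1b, 97.9% for Tuba1b and Tuba1c, and 97.1% for Tuba1a and Tuba1c. Tubb2a and Tubb2b shared 96.5%, while the other beta pairs shared 80.2% to 85.7% and alpha with beta 52.6% to 55.1%. Of all 100-base windows of the main transcript, 73.0% of those of Tuba1b, 65.8% of Tuba1a, 53.4% of Tuba1c, 36.9% of Tubb2a, 30.6% of Tubb4b and 27.7% of Tubb2b occurred in a transcript of another gene. For Tubg1 it was 4.11%, all shared with Tubg2, and for Tubb3, Tubb5 and Tubb6 it was 0. The main partner of Tubb4b was the processed pseudogene Tubb4b-ps1, which held 4.69 and 7.86 counts.

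The deposited posterior SD of the count gives the uncertainty of this splitting. It was 0 for Tubb3, Tubb5 and Tubb6, whose counts were whole numbers, and 0.0203% and 0.0209% of the count for Tubb4b. It was 0.240% and 0.226% for Tuba1b and 0.257% and 0.249% for Tuba1a. Tuba1c, with 1.72% and 1.80%, and Tubb2b, with 2.21% and 2.24%, were the least precise, and Tubb2a had 1.01% and 1.10%. The SD in counts was the same for Tubb2a and Tubb2b, 18.4 in replicate 1 and 20.6 in replicate 2. The 1.11-fold and 1.13-fold excess of Tuba1b over Tuba1a is thus larger than this SD, but it assumes that the annotated transcripts hold all sources of the shared reads.

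**Figure D3:**
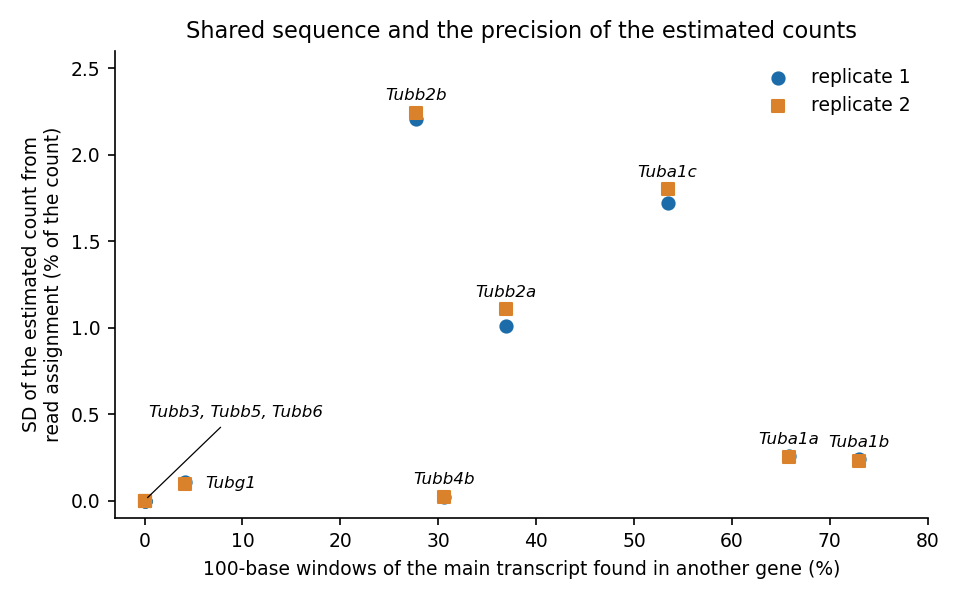
Share (%) of the 100-base windows of each main transcript found in another gene, against the SD of the estimated count as a percent of that count, for each library (circle, replicate 1; square, replicate 2). Tubb3, Tubb5 and Tubb6 sit at the origin, and Tubb2b and Tuba1c are highest, at 2.24% and 1.80% in replicate 2.

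Few of the reads were assigned to alpha pseudogenes. The tables hold 6 processed pseudogenes that share a window with an alpha member, with 177 and 147 counts in all, or 0.218% and 0.176% of the count of the 3 alpha genes. Of the 11 genes outside the members that share such a window, 7 were in the tables. The rest, which include processed pseudogenes, have no counts here, so these percentages do not cover them. Gm14150 was the highest, with 112 and 102 counts, and 2 of the 6 reached 1 TPM in both libraries. Of the pseudogenes that carry a tubulin symbol, Tubb4b-ps1 (0.20 and 0.34 TPM) and Tubb4b-ps2 (0.17 and 0.14 TPM) were in the tables, and neither reached 1 TPM. Fam166a overlaps the end of Tubb4b by 121 bases on the other strand and held 2.13 and 1.13 counts. Gm20388, which spans Tubb3 on the same strand, held 0.80 and 0 counts. Gm49450 and Gm41396 overlap these alpha loci in the later annotation, and no level of theirs is given here. Gm49450 counts among the genes that share windows with the alpha members, and its 1 matched transcript was part of Tuba1a in the tables, with 8.83 and 5.05 counts.

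For every member a single protein-coding transcript dominated, with at least 98.4% of the gene's TPM in either library by the deposited percent values. The main transcript had 4 exons in each alpha and beta gene and 11 in Tubg1. Tuba1c, Tubb2a, Tubb2b, Tubb3 and Tubb6 had 1 transcript each in the tables. For Tubb5, the rest was 1 short coding transcript (0.41% and 0.38%) and a pair of retained-intron transcripts (0.62% and 0.78%, and 0.57% and 0.40%).

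In mm10 coordinates, Tuba1b spans 98931425 to 98934565, Tuba1a 98949837 to 98953703 and Tuba1c 99029891 to 99038110 on chromosome 15. Tubb2a spans 34074274 to 34078007 and Tubb2b 34126748 to 34130466 on chromosome 13. Tubb5 spans 35833921 to 35838306 on chromosome 17, Tubb4b 25222160 to 25224702 on chromosome 2 and Tubb3 123411424 to 123422015 on chromosome 8. Tubb6 spans 67390717 to 67402749 on chromosome 18, and Tubg1 101119938 to 101126419 on chromosome 11. The alpha genes and the Tubb2 pair are thus the members with another member nearby.

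Between the replicate libraries most members differed little. On the log2(TPM + 0.1) scale, 8 of 10 were higher in replicate 2, and the absolute difference was at most 0.13 in every member but Tubb3. The median log2 ratio of replicate 2 over replicate 1 was 0.05 over the members and 0.01 over the 18580 genes tested. Genes were compared with a two-sided exact binomial test on counts, Benjamini-Hochberg adjusted over all genes tested, which covers counting error only and compares these libraries, not conditions. Of the 10 members, 3 passed an adjusted p of 0.05 with no limit on fold, against 16.4% of all genes tested. That share includes genes with few counts, where small differences cannot pass. Among genes with at least 100 counts, 2948 of 13645 were called. No member passed with a fold of at least 2, which 1.85% of all genes did.

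Tubb5 was higher in replicate 2 by a log2 count ratio of 0.06 (95% interval 0.04 to 0.08; exact binomial test, adjusted p = 9.24e-10). Tubb3 was higher in replicate 2 by 0.68 (0.45 to 0.92; exact binomial test, adjusted p = 1.01e-07), or 1.61-fold. Tubb6 was lower in replicate 2, with a log2 count ratio of -0.13 (-0.22 to -0.04; exact binomial test, adjusted p = 0.0290). Over all genes tested, 7.10% passed in favour of replicate 2 and 9.30% in favour of replicate 1. With DESeq2 size factors in place of total counts, Tubb6 lost its call (adjusted p = 0.0694) and Tuba1b (adjusted p = 0.000367) and Tubb4b (adjusted p = 0.00599) passed the exact binomial test, and calls over all genes were 53.8% higher in replicate 2 rather than 43.3%.

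edgeR's exact test, run as an alternative, called no member. With tagwise dispersions, run first, it called 0 of 18580 genes (0.00%), with 173 at an unadjusted p under 0.05 and no member among them. After that result was seen, trended dispersions were used instead, and edgeR's exact test then called 136 genes (0.732%), with 772 at an unadjusted p under 0.05. Tubb3 was the 1 member with an unadjusted p under 0.05 by that test (edgeR's exact test, trended dispersions, p = 0.00211, adjusted p = 0.184). Both kinds of dispersion were estimated from the same pair of libraries that the test compares, so the difference tested is itself the spread, and these counts do not show that members were alike.

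**Figure D4:**
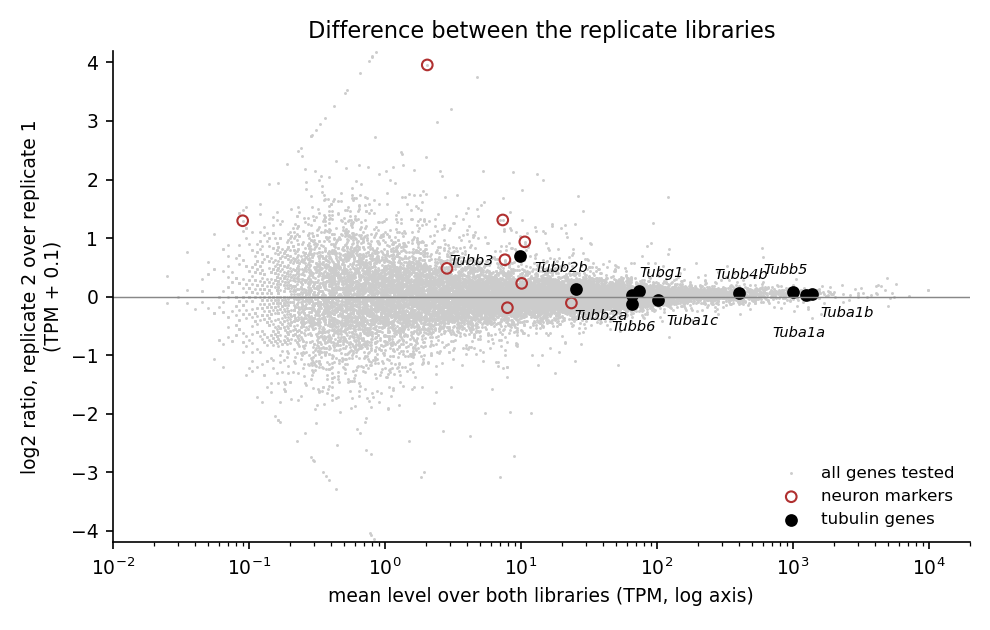
Log2 ratio of replicate 2 over replicate 1, on TPM + 0.1, against mean TPM (log axis) for the genes tested (grey), the tubulin genes (black) and the neuron markers (open red circles). Tubulin genes lie near 0 except Tubb3 at 0.69, and 21 genes lie outside the vertical range of 4.2 in either direction.

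Like Tubb3, most of the listed neuron markers were higher in replicate 2, but Gap43 and Dcx were lower. Of the 9 listed (Elavl3, Elavl4, Stmn2, Gap43, Nefl, Nefm, Prph, Isl1 and Dcx), 7 were called higher in replicate 2 and 1, Dcx, higher in replicate 1 by the exact binomial test, against 7.10% and 9.30% of all genes tested. Their summed level was 62.3 and 82.4 TPM, and their median log2 ratio was 0.63. Nefl, which encodes a neurofilament subunit, was at 4.19 and 10.5 TPM, the intermediate filament gene Prph at 0.16 and 3.94 TPM, and Isl1, a transcription factor of motor and sensory neurons, at 7.31 and 14.1 TPM. The RNA-binding protein gene Elavl3 was at 0.01 and 0.17 TPM, and no marker was at 0 in both libraries. Some of these differences rest on few counts, 5 and 126 for Prph and 1 and 16 for Elavl3. Gap43, a growth-cone gene, was the highest marker at 24.4 and 22.6 TPM and was not called. edgeR's exact test with trended dispersions called 3 of the 9, Nefl, Prph and Isl1, against 0.732% of all genes tested. With tagwise dispersions, run first, it called 0 of 18580 genes. Of 5 listed Schwann precursor markers, Fabp7 (2.42 and 7.04 TPM) was the 1 called by the exact binomial test, against 7.10% of all genes tested. Other marker lists also held calls by that test. Skeletal muscle had 3 of 4 called higher in replicate 1, erythroid 1 of 3 and liver 1 of 2 tested, against 9.30% of all genes tested. Cycling cells had 1 of 4 called higher in replicate 2, against 7.10% of all genes tested. The part of nerve tissue in the difference in Tubb3 was not tested.

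As a check of the tissue label, all 8 listed limb mesenchyme genes reached 1 TPM in both libraries, with sums of 1034 and 1099 TPM. By the exact binomial test, 3 of the 8 were called higher in replicate 2, against 7.10% of all genes tested. They were the hindlimb gene Pitx1 (142 and 173 TPM), Msx1 (380 and 411) and Hoxd13 (67.3 and 74.2). The forelimb gene Tbx5 (35.2 and 24.1 TPM) was the 1 called higher in replicate 1, against 9.30% of all genes tested. Tbx5 was also the 1 of the 8 called by edgeR's exact test with trended dispersions (adjusted p = 0.00361), against 0.732% of all genes tested. With tagwise dispersions, run first, that test called 0 of 18580 genes. The part of limb composition in the differences among tubulin genes was not tested.

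The genes that fold tubulin were all present. Newly made tubulin passes from prefoldin to the chaperonin CCT and then to cofactors that join alpha and beta. All 8 CCT subunit genes had high levels, from Cct2 (206 and 216 TPM) to Cct6a (451 and 456), Cct5 (471 and 501) and Cct3 (531 and 548), with a summed level of 3110 and 3258 TPM. Of these, Tcp1, Cct4, Cct5 and Cct8 (4 of 8) passed the exact binomial test in favour of replicate 2, against 7.10% of all genes tested, and none in favour of replicate 1, against 9.30%. These 4 had folds of 1.06 to 1.08 at 9950 or more counts per library, where the test passes small differences. The shares over all genes include genes with far fewer counts, so they are not a comparison at like depth. No fold reached 2, and edgeR's exact test with trended dispersions called 0 of the 8, as it did for the folding, ring complex, tail enzyme, acetylation and severing genes below. None of the 6 prefoldin genes was called, against 16.4% of all genes tested in either direction. They ranged from Pfdn1 (90.1 and 87.9 TPM) to Vbp1 (127 and 130), Pfdn6 (141 and 149) and Pfdn5 (353 and 373). None of the 7 cofactor genes was called either, against the same 16.4%. Among them Tbca, which binds beta tubulin, was at 259 and 268 TPM, Tbcb, which binds alpha tubulin, at 184 and 182, the GTPase gene Arl2 at 63.0 and 60.6, and Tbcel at 4.08 and 4.33.

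Tubg1 works in the gamma-tubulin ring complex, and all 8 listed partners were above 1 TPM. Mzt1, a small subunit, was at 96.2 and 100.4 TPM, Tubgcp4 at 61.8 and 70.3, Tubgcp2 at 60.02 and 61.7, and Tubgcp6 at 18.6 and 16.8. Tubgcp4 and Mzt2 were called higher in replicate 2, against 7.10% of all genes tested. Tubgcp6 was called higher in replicate 1, against 9.30%, while Tubg1 itself was not called. Ttc5, which reads the start of nascent tubulin, was at 63.1 and 70.0 TPM and was called higher in replicate 2 with a fold under 2.

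Other enzymes modify tubulin after it is made. For the terminal tyrosine, the vasohibin partner Svbp was at 147 and 153 TPM, Vash2 at 67.5 and 69.0, the ligase Ttl at 15.0 and 16.9, and Vash1 at 10.5 and 11.6. None of the 4 was called, against 16.4% of all genes tested. Atat1 (114 and 120.5 TPM) and Hdac6 (43.5 and 45.1 TPM), which add and remove the acetyl group on a lysine of alpha tubulin inside the microtubule and not on the tails, were not called. Of 12 genes for adding glutamate to the tails or removing it, 8 reached 1 TPM in both libraries, led by Agbl5 (33.3 and 29.5 TPM), Ttll4 (24.5 and 27.9) and Ttll1 (23.0 and 22.2). Ttll6 (0.02 and 0.03 TPM) and Agbl1 (0.05 and 0) had the lowest mean. Ttll4 was the 1 gene of the list called, higher in replicate 1 with 2635 and 2460 counts, against 9.30% of all genes tested. Its TPM went the other way because its effective length was 5753 bases in replicate 1 and 4674 in replicate 2.

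Of 13 microtubule-associated proteins and stathmins, 5 were called as higher in replicate 2 (7.10% of all genes tested), and Map4 and Dcx (2 genes) in replicate 1 (9.30% of all). edgeR's exact test with trended dispersions called 1 of the 13, Stmn3 (adjusted p = 4.46e-05), against 0.732% of all genes tested. Stmn1, which binds free tubulin dimers, was at 1783 and 1989.7 TPM, above any tubulin gene, followed by Mapre1, a plus-end binding protein (190.4 and 208 TPM), and Ckap5, a microtubule polymerase (99.7 and 109). The neuronal genes Mapt (1.24 and 2.47 TPM) and Stmn3 (0.46 and 4.35 TPM) passed the test with a fold of at least 2 in favour of replicate 2. Of 5 severing genes, Spast was called higher in replicate 2 (7.10% of all genes tested). Fign (5.53 and 3.46 TPM) was called higher in replicate 1 (9.30% of all), by 1.30-fold with 575 and 449 counts. Its TPM differed more than its counts because its effective length was 5547 bases in replicate 1 and 6881 in replicate 2. Fignl1 (61.5 and 65.8 TPM) and Katna1 (57.2 and 63.2) were not called.

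**Figure D5:**
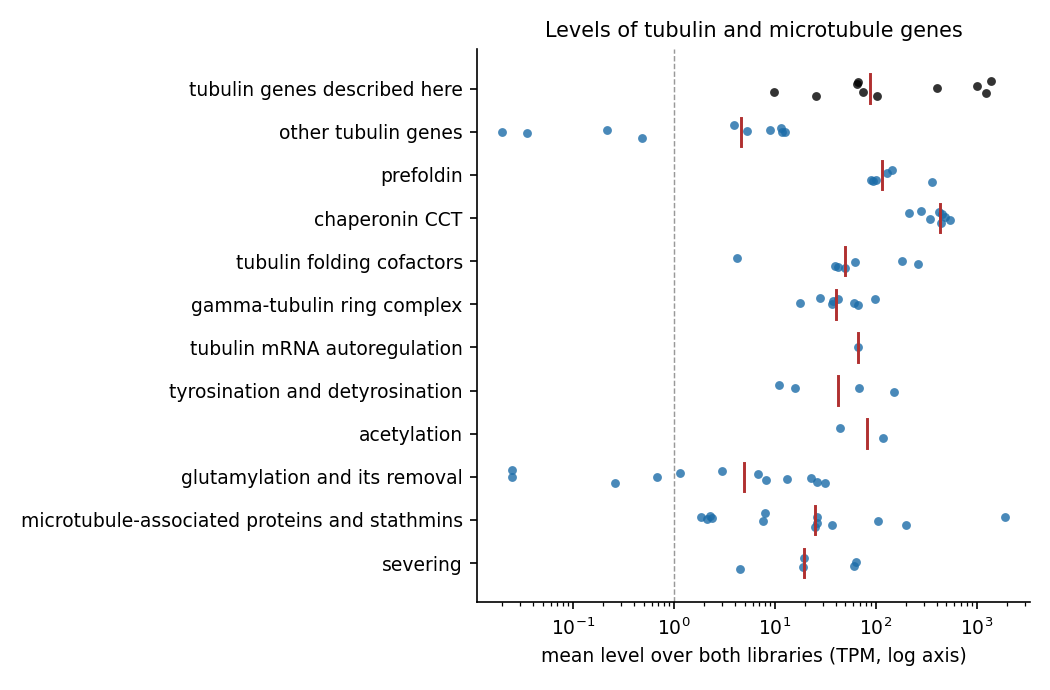
Mean TPM over both libraries (log axis) of each tubulin member (black) and of the genes of each listed group (blue), with a red bar at the median of each group and a dashed line at 1 TPM. The CCT genes lie within a narrow high range, and the glutamylation genes and other tubulin genes extend below 1 TPM.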

How the data were processed

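Total RNA of limb was measured in 2 libraries. The authors deposited expected counts per gene and transcript, with shared reads split between genes, TPM scaled by effective length, and percent values for the share of each transcript in its gene, per the file headers. The deposited description files name mm10 and GENCODE M4. No source used here names the aligner, the quantifier or the strand setting. Names, coordinates and sequences came from GENCODE M21 on the same assembly.

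Counts were rounded for tests. Genes whose counts in the 2 libraries added up to 10 or more were compared with an exact binomial test against total counts, since with 1 group edgeR's quasi-likelihood test has no contrast. Log values used a pseudocount of 0.1 TPM. The test was tested on simulated data that held counting error only, which is what it assumes. Between the real libraries, chi-square per degree of freedom was 6.62 over 16463 genes, so they differed by more than counting error. The simulation does not cover that spread. Replicates were pools of different numbers of embryos, and p-values measure the difference between these libraries only. Intervals cover counting error only.

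The members and lists were chosen with earlier results of these data known. The window sharing, identity and coding ends were added after member levels were seen. The planned edgeR exact test left the kind of dispersion open: tagwise dispersions were run first and called 0 genes, and trended dispersions were added after that was seen. The text names all members, the 3 highest and the lowest genes of each list of tubulin-related genes, and those of them called with a fold of at least 2. Cell type markers are given beside results on related genes, and those of skeletal muscle, erythroid, liver and cycling cells as numbers of calls only. Other genes of the lists, markers included, and Gm14150, were named after their values were seen. A few sequences and 1 gene that this rule takes are not reported here. Tools were R 4.3.3, edgeR 4.0.16, DESeq2 1.42.0, Python 3.11.15, scipy 1.17.1, pandas 2.3.3 and Biopython 1.88.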

Additional observations from a re-analysis of the deposited data

How the results depend on the processing

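The ratio of summed alpha to summed beta level was 1.74 and ran from 1.72 to 1.76 when either replicate was left out, but was 1.29 without length scaling. The number of members called between the libraries was 3, and was 5 with TMM scaling, which added Tuba1b and Tubb4b, and 0 with edgeR's exact test, with tagwise dispersions and also 0 with trended dispersions. Trended dispersions were chosen after the tagwise test had been seen to call 0 genes, so that choice is not independent of the data. Over all genes, 3048 were called by the binomial test, 136 by edgeR with trended and 0 with tagwise dispersions. With a fold of at least 2 these were 343, 79 and 0, and 75 for the binomial test with a minimum of 100 counts. No member's log2 ratio between the libraries changed sign under the scalings and pseudocounts run. With TMM or DESeq2 scaling, 4 values of single members newly passed the threshold and 1 lost it; the pseudocount does not enter the test. Calls over all genes were mostly higher in replicate 1 with total counts (1320 against 1728) and mostly higher in replicate 2 with DESeq2 size factors (1673 against 1435). Without length scaling, Tubb5 stood above Tuba1b and Tubb6 above Tubb2a. Calls between libraries cannot be made without a replicate. No paired analysis was possible because there is 1 group.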
